A study of Stylosanthes guianensis with 6 samples.

Results

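The genes described here are 9 unigenes of stylo (Stylosanthes guianensis, a tropical forage legume) that the study listed as encoding SPX domain-containing proteins and as higher under low phosphate (LP) than under high phosphate (HP). A unigene is a set of assembled transcripts taken as 1 gene, and the 9 were taken by identifier from 173014 unigenes in the expression tables. Roots of cultivar RY2 were sequenced in 3 LP and 3 HP libraries. Seedlings were germinated for 3 d, precultured for 14 d at 250 μM KH2PO4, and then held for 21 d at 0 μM KH2PO4 (LP) or at 250 μM KH2PO4 (HP; titled CK) in nutrient solution of pH 5.8. A replicate was a box of 3 seedlings, so every library is a pool of plants of a single cultivar, and all 6 libraries share cultivar, age and preculture. Libraries were grouped by title, with LP as the dose without phosphate. The sample labels disagree with this in their field for phosphorus, which assigns 250 μM to the LP titles and 0 μM to the CK titles, so the direction of every difference given here rests on the titles. Roots are the tissue in the tissue field and in the paper, whereas the labels' extraction text speaks of leaves and of a strand-specific kit. The sources used here do not give whether reads were counted by strand, so the values of unigenes that overlap another or run antisense to it are uncertain.

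The SPX domain is named after the proteins SYG1, PHO81 and XPR1 and binds inositol pyrophosphates, signalling molecules whose level follows the phosphate status of the cell. In Arabidopsis and rice, small proteins made of little more than this domain bind the MYB factors PHR1 and PHR2 when phosphate is ample and keep them from the promoters of phosphate-starvation genes. Several of the SPX genes are themselves induced by these factors during phosphate starvation, so the family is widely used as a marker of the phosphate-starvation response of roots.

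Names rest on best database matches to other species or, for one pair, to stylo itself. Cluster-8255.18191 and Cluster-8255.18192 were both described as SPX1 of S. guianensis, with SPX2 of Arabidopsis as the best protein match. The qRT-PCR primers designed for Cluster-8255.18191 are shown 5′ to 3′, because they are the only sequence used here that the study assigned to any of the 9. Whether they also fit Cluster-8255.18192 was not tested. Each is 24 bases long with a GC content of 50.0%.

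forward primer of Cluster-8255.18191: tcatccggttgcccttcatacaga
reverse primer of Cluster-8255.18191: agaaggcggagaatcaatcacagg

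A further 5 unigenes were described as SPX3 or SPX3-like. Cluster-8255.114442 and Cluster-8255.17953 share the same soybean SPX3-like match, Cluster-8255.17821 and Cluster-8255.76615 share the same chickpea SPX3 match, and Cluster-8255.114752 matched an SPX3-like gene of poplar. In Arabidopsis, SPX3 acts as a negative regulator of phosphate-starvation responses, and in rice SPX3 and SPX5 repress PHR2. Cluster-8255.45695 was described as SPX2-like of chickpea, with SPX1 of Arabidopsis as its protein match. The tables read here give no description for Cluster-8255.58682, which is an SPX unigene by the study's list alone. Whether unigenes with 1 shared match are separate genes, alleles or pieces of 1 transcript was not tested.

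All 9 SPX unigenes passed the filter on low counts, all 9 were called higher under LP, and in all 9 every LP library lay above every HP library. Over the whole table, edgeR's quasi-likelihood test called 6.09% of the 62040 unigenes tested higher under LP and 7.10% lower (13.2% in either direction), and every LP library lay above every HP library in 20.1%. The 9 were chosen on this same comparison, so these counts and the changes that follow are descriptions with no test, and nothing is read from them. The fitted log2 fold changes ran between 4.44 and 10.11 with a median of 5.77, beside a median of 0.03 over all unigenes tested. That median is 5.74 when the unigene without any HP read is set at its lower bound. In RNA from whole roots, a change in the share of the cells that express a gene and a change in the RNA per cell cannot be told apart.

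**Figure D1:**
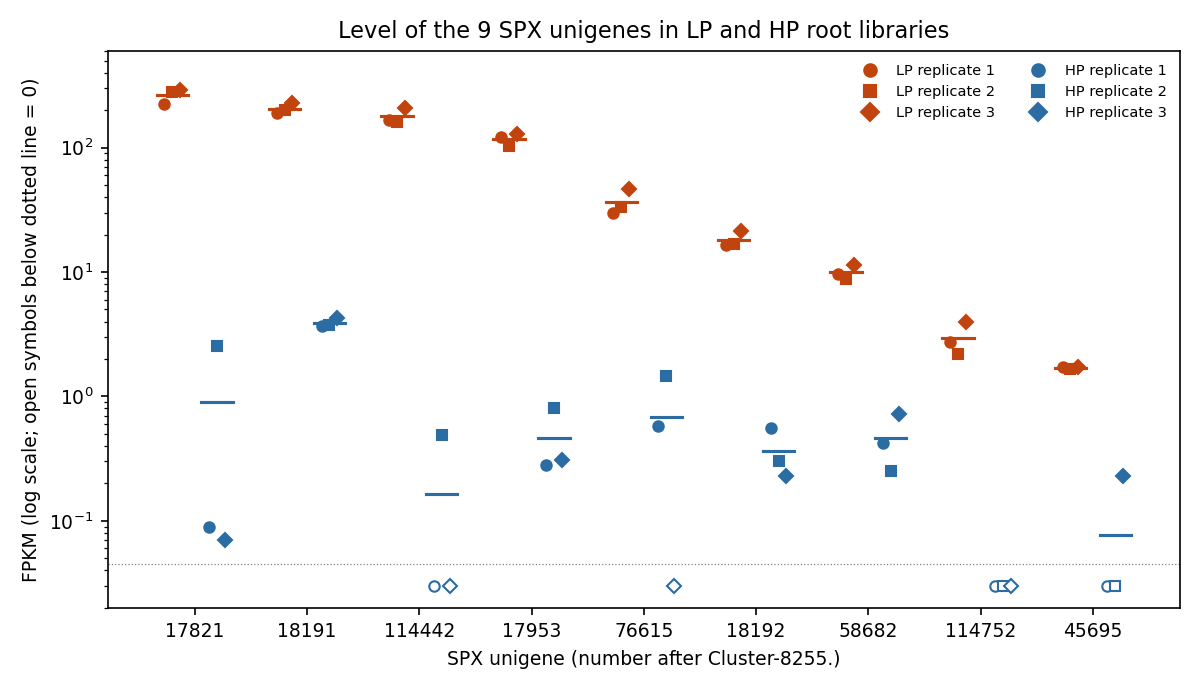
FPKM of the 9 SPX unigenes (x axis, in the order of their LP mean) in each library on a log scale, LP in orange left of HP in blue, with 1 symbol shape per replicate number and bars at the group means of 3 libraries. Open symbols below the dotted line stand for 0 FPKM. In every unigene the 3 LP libraries lie above the 3 HP libraries, and the HP values of Cluster-8255.17821 and Cluster-8255.114442 come almost wholly from HP replicate 2.

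The main SPX1 unigene was the SPX gene with the most reads in every library. Cluster-8255.18191 had 189, 199 and 230 FPKM (fragments scaled for transcript length and library size) in LP roots, against 3.71, 3.72 and 4.25 FPKM in HP roots. These values rest on 6813, 6801 and 8039 estimated counts under LP and on 110, 96.5 and 115 under HP. The groups lay far apart, the HP libraries were close to one another, and LP replicate 3 was the highest. The level averaged 205.8 ± 21.5 FPKM under LP and 3.89 ± 0.309 FPKM under HP (SD, n = 3 each). The log2 fold change was 5.74 (SE between libraries 0.12), or 53.5-fold. Of the 9, it alone held at least 96.5 estimated counts in each HP library, and leaving out any single HP library moved its read ratio only between 52.0 and 56.1.

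Its partner Cluster-8255.18192 had 16.4, 16.8 and 21.4 FPKM in LP roots, against 0.56, 0.30 and 0.23 FPKM in HP roots. The groups did not overlap, and in the HP libraries the level rests on 24.2, 11.5 and 9.03 estimated counts. The means were 18.2 ± 2.77 FPKM under LP and 0.363 ± 0.174 FPKM under HP (SD, n = 3 each), and the log2 fold change was 5.64 (SE 0.36), or 49.8-fold.

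The counts of this pair are tied to each other. The estimated counts of Cluster-8255.18191 and Cluster-8255.18192 were fractional in all 6 libraries, but their sums were whole within 0.015 reads, at 7684, 7647 and 9138 in the LP libraries and at 134, 108 and 124 in the HP libraries. No other unigene of the 173014 completed either of them to whole numbers in this way, and the other 7 SPX unigenes had 0 such partners. Only single partners were sought, so reads divided among several unigenes at once would be missed. The other 7 also had fractional counts, in 3 to 6 libraries each, so their counts may hold divided reads too. RSEM, which estimated the counts, divides reads that fit several sequences among them, so the total of the pair is firmer than its split. Cluster-8255.18191 took 7.82, 8.04 and 7.31 reads for each read of Cluster-8255.18192 in LP libraries, against 4.54, 8.38 and 12.7 in HP libraries. The LP ratios were close together and lay within the wider range of the HP ratios, which rest on few reads.

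**Figure D2:**
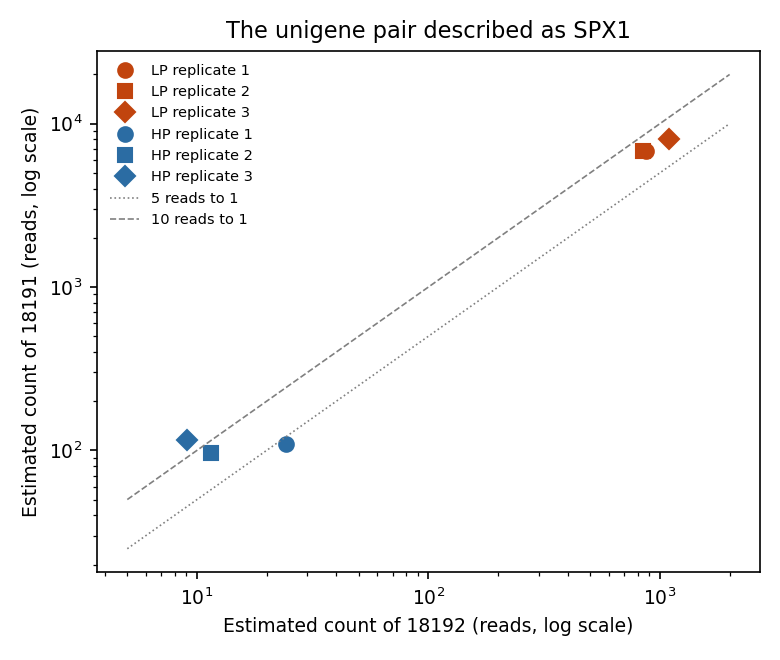
Estimated counts of Cluster-8255.18191 (y axis) against those of Cluster-8255.18192 (x axis) in the 6 libraries, both on log scales, LP in orange and HP in blue, with lines at 5 and 10 reads to 1. The 3 LP libraries sit together between the lines at 7.31 to 8.04 reads to 1, and the 3 HP libraries spread between 4.54 and 12.7.

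Among the SPX3-described unigenes, Cluster-8255.17821 had the highest FPKM of the 9 under LP. It had 226, 281 and 292 FPKM in LP roots, against 0.09, 2.56 and 0.07 FPKM in HP roots. Under HP only replicate 2 held more than 1 estimated count (8.30, against 0.33 and 0.23 in replicates 1 and 3), while the LP libraries held 984, 1166 and 1258. The log2 fold change was 8.34 (SE 0.86), or 323-fold. Without HP replicate 2 no rounded read was left under HP, and the unigene was at least 621-fold higher under LP, against a floor of 3 reads over the group.

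Cluster-8255.114442 showed the largest fitted change, with 168, 159 and 206 FPKM in LP roots, against 0, 0.49 and 0 FPKM in HP roots. The LP libraries held 3766, 3401 and 4500 estimated counts, whereas the 7.88 counts found under HP all came from replicate 2. The fitted log2 fold change of 10.11 (SE 0.86) therefore rests on 1 HP library. Without that library the unigene was at least 2125-fold higher under LP, and the fitted log2 value became 14.82, which is no bound.

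Cluster-8255.17953, which shares its soybean match with Cluster-8255.114442, had 121, 102 and 128 FPKM in LP roots, against 0.28, 0.81 and 0.31 FPKM in HP roots. The groups were far apart, and HP replicate 2 was again the highest HP library, with 5 reads against 2 and 2. The log2 fold change was 7.95 (SE 0.34), or 248-fold, and the read ratio without HP replicate 2 was 399.

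The least even SPX3-described unigene was Cluster-8255.76615, which had 29.8, 33.5 and 46.5 FPKM in LP roots, against 0.58, 1.47 and 0 FPKM in HP roots. Its HP libraries held 33.9, 75.1 and 0 estimated counts, so replicate 3 had none and replicate 2 the most, although all 3 lay below the LP libraries (2122, 2264 and 3204). The log2 fold change was 5.77, or 54.6-fold. The SE between libraries was 1.68, with HP replicate 3 at the floor given to 0 reads. The read ratio was 51.3, 122 and 37.2 without HP replicate 1, 2 and 3 in turn. Its biological coefficient of variation was 0.929, the highest of the 9, beside a median of 0.351 over all unigenes tested.

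Cluster-8255.114752, the poplar-matched SPX3-like unigene, was the weakest of the class, with 2.73, 2.21 and 3.96 FPKM in LP roots and 0 in all 3 HP libraries. The LP libraries held 126 rounded reads together, and the unigene was at least 33.3-fold higher under LP, against 3 reads over the HP group. At the HP depth this shows only that its level was under that floor.

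Outside both classes, Cluster-8255.58682, the unigene without a description, had 9.71, 8.71 and 11.4 FPKM in LP roots, against 0.42, 0.25 and 0.72 FPKM in HP roots. Every HP library held some counts (7.20, 3.74 and 11.4), the groups did not overlap, and LP replicate 3 and HP replicate 3 were the highest of their groups. Its log2 fold change of 4.44 (SE 0.34), or 21.8-fold, was the lowest fitted value of the 9. Cluster-8255.45695, the SPX2-like unigene, was the lowest in level, with 1.74, 1.66 and 1.72 FPKM in LP roots, against 0, 0 and 0.23 FPKM in HP roots. It had 95 rounded reads under LP and 3 under HP, a ratio of 25.1 with an exact 95% counting interval of 8.34 to 124, which covers counting error only. Its LP libraries had a coefficient of variation of 2.44% in FPKM. They held only 33.4, 30.2 and 32.0 estimated counts, too few for that value to measure the spread between libraries. Cluster-8255.45695 was no longer called when HP replicate 1 or 2 or any of the 3 LP libraries was left out (log2 fold changes of 3.95 and 3.98 without HP replicates 1 and 2, and 4.47 to 4.53 without an LP library), and without HP replicate 3 it was at least 16.9-fold higher.

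Beside the 9, the 1272 rows read of the study's table of changed unigenes describe 1 other unigene as SPX domain-containing. The study also lists SPX unigenes that were lower under LP, which are not analysed here, so the direction of the whole family is not given. Cluster-8255.50610, described as IDS4-like of Medicago truncatula with SPX2 of Arabidopsis as the best protein match, had 2.14, 1.95 and 2.21 FPKM in LP roots, against 0.10, 0 and 0.11 FPKM in HP roots. Its log2 fold change of 5.07 lies above that of Cluster-8255.45695 and Cluster-8255.58682, the lowest of the 9, and its LP level lies between those of Cluster-8255.114752 and Cluster-8255.45695. It is absent from the list that chose the members and is given as a description.

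**Figure D3:**
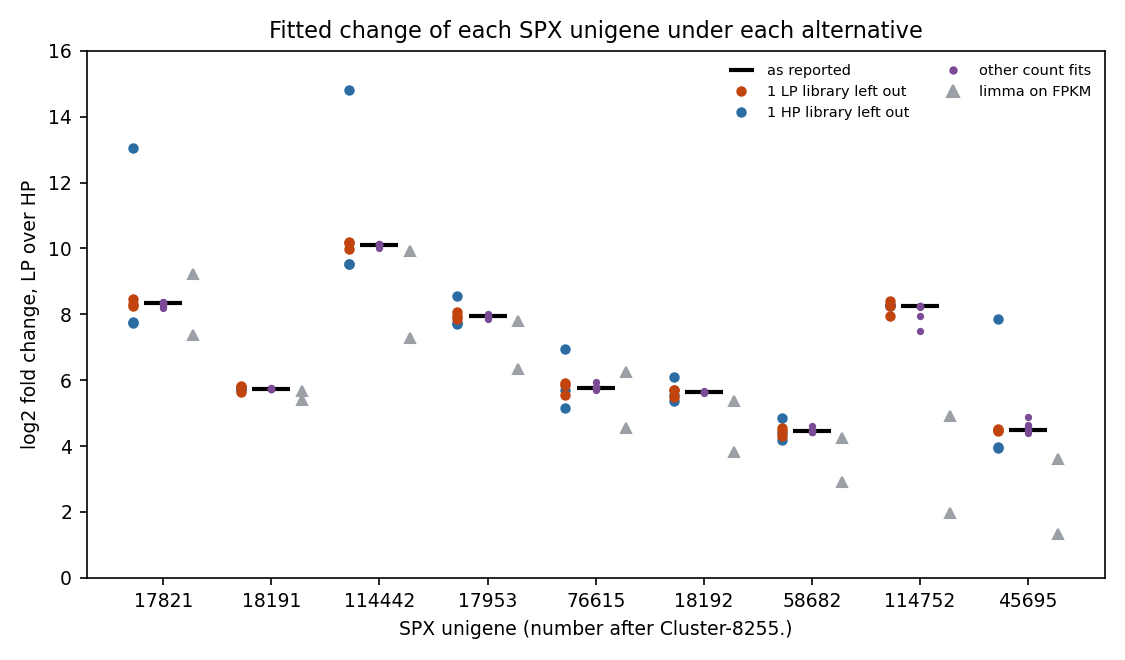
Fitted log2 fold change, LP over HP (y axis), of each SPX unigene (x axis): the value as reported (bar), with 1 LP or 1 HP library left out (orange and blue points), in the other count fits (purple points) and with limma on log2(FPKM + 1) or log2(FPKM + 0.1) (grey triangles, the lower one with 1). All values are positive. Without HP replicate 2 the values of Cluster-8255.114442 (14.82) and Cluster-8255.17821 (13.04) and without HP replicate 3 that of Cluster-8255.45695 (7.86) rest on no HP read and are no bounds, as in Cluster-8255.114752 throughout, and on log2(FPKM + 1) Cluster-8255.114752 stands at 1.96.

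The order of the SPX unigenes by FPKM, which is per transcript length, differed between the treatments. Under LP the order of the means was Cluster-8255.17821 (266 ± 35.5 FPKM), Cluster-8255.18191, Cluster-8255.114442 (178 ± 25), Cluster-8255.17953 (117 ± 13.5), Cluster-8255.76615 (36.6 ± 8.77), Cluster-8255.18192, Cluster-8255.58682 (9.94 ± 1.36), Cluster-8255.114752 (2.97 ± 0.899) and Cluster-8255.45695 (1.71 ± 0.0416; SD, n = 3 throughout). Each unigene was above the next in all 3 LP libraries, but across libraries the range of Cluster-8255.18191 overlapped those of both its neighbours. The order of these 3 therefore holds within each LP library, while Cluster-8255.18191 does not separate from either neighbour over the spread between libraries. Cluster-8255.17821 (226 to 292 FPKM) and Cluster-8255.114442 (159 to 206 FPKM) did not overlap. Under HP, Cluster-8255.18191 was above the other 8 in every library with no overlap, and the ranges of all later neighbours overlapped.

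In the LP libraries the 4 most abundant SPX unigenes stood among the upper transcripts of the root. Ranked by FPKM among all unigenes with a value above 0, Cluster-8255.17821 was at place 349 to 506 of its LP library, within the upper 0.436%. Cluster-8255.18191 was at place 490 to 656 of the LP libraries and at place 26134 to 28351 of the HP libraries. Cluster-8255.114442 was at place 566 to 785 and Cluster-8255.17953 at place 1016 to 1357 under LP.

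The FPKM of the shortest unigenes depend most on length. The effective length implied by count and FPKM was 201 bases for Cluster-8255.17821 and 391 bases for Cluster-8255.17953, beside 1658 for Cluster-8255.18191, 3270 for Cluster-8255.76615 and a median of 1386 over 61037 tested unigenes. It was the same in both treatments to within a few bases for Cluster-8255.18191 (1657 to 1661 under LP and 1660 to 1664 under HP). In estimated counts, Cluster-8255.17821 stood below Cluster-8255.18191, Cluster-8255.114442 and Cluster-8255.76615 in each LP library, so its place at the head of the order holds per length only.

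Summed over the 9, the level was 764, 804 and 942 FPKM in LP roots, against 5.64, 9.60 and 5.81 FPKM in HP roots, a ratio of means of 119. Whether unigenes with a shared match are pieces of the same transcript was not tested. If they are, this sum and the FPKM shares that follow count that transcript more than once. The 9 took 0.0728% to 0.0926% of all estimated counts in LP libraries and 0.000864% to 0.00133% in HP libraries. The groups did not overlap, LP replicate 3 was the highest LP library and HP replicate 2 the highest HP library. The ratio was 76.5 on TMM-normalized counts, which give long unigenes more weight, and 202 without Cluster-8255.18191, the member with the most HP signal.

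The make-up of that sum was nearly fixed among the LP libraries and loose among the HP libraries. The 5 SPX3-described unigenes held 71.6%, 71.9% and 71.9% of it in LP roots, against 16.8%, 55.5% and 6.54% in HP roots. The SPX1-described pair held 26.9%, 26.8% and 26.7% in LP roots, against 75.7%, 41.9% and 77.1% in HP roots. In estimated counts the SPX3-described share was 50.1%, 49.5% and 51.7% under LP, against 20.4%, 46.3% and 1.58% under HP, so the groups did not overlap on either scale, but HP replicate 2 came close to the LP libraries in counts. The reads behind it were few under HP, with 36.2, 96.3 and 2.23 estimated counts for the 5 SPX3-described unigenes and 134, 108 and 124 for the pair.

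**Figure D4:**
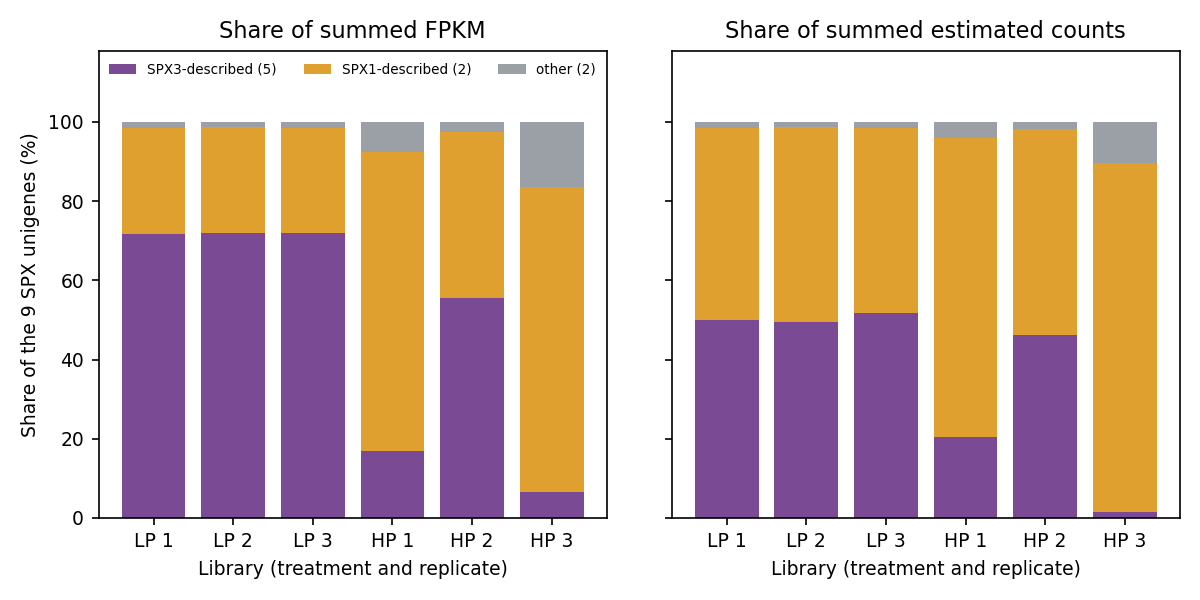
Share (%) of the 9 SPX unigenes' summed FPKM (left) and summed estimated counts (right) held by the 5 SPX3-described, the 2 SPX1-described and the other 2 unigenes in each library, LP libraries left of HP libraries. The SPX3-described share is 71.6% to 71.9% of FPKM in the LP libraries and 6.54% to 55.5% in the HP libraries, with HP replicate 2 the nearest to LP.

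Which library was the highest of its treatment was counted over the SPX unigenes. LP replicate 3 had the highest LP value for 8 of the 9, the exception being Cluster-8255.45695. It was the highest of the 3 for 36.2% of all tested unigenes with 1 highest library. The 9 are not independent observations, since Cluster-8255.18191 and Cluster-8255.18192 divide reads, so nothing is read from the 8 of 9. HP replicate 2 was the highest HP library for 4 of the 8 with any HP value, all 4 of them SPX3-described (Cluster-8255.17821, Cluster-8255.114442, Cluster-8255.17953 and Cluster-8255.76615), beside 34.0% of all tested unigenes. The count is too small to set apart from that share. In that library Cluster-8255.17821, Cluster-8255.114442 and Cluster-8255.17953 held only 8.30, 7.88 and 5 estimated counts. Over all unigenes HP replicate 2 stood apart, alone at one end of the second principal component, which held 14.8% of the variance. Its part in the HP values was not tested beyond leaving it out. Within LP, the coefficient of variation of the FPKM was 10.4% for Cluster-8255.18191 and ran between 2.44% and 30.3% over the 9. The lowest value was that of Cluster-8255.45695 and rests on few reads. The median was 19.7% over 43579 tested unigenes with a mean LP FPKM of at least 1.

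Sequencing was deeper in the LP libraries, with totals of 20643446 to 21784888 estimated counts, than in the HP libraries, with totals of 15586353 to 17821019. The first principal component, with 49.5% of the variance, separated LP from HP. Values were also read for 4 high-affinity nitrate transporter unigenes, a class of root uptake genes. Their summed FPKM was 125 to 203 in LP libraries and 2550 to 2930 in HP libraries, with 4 of 4 called lower. They were taken from the study's changed transporters, so this drop cannot show how much root tissue a library held. Separately, 4 unigenes were described by photosystem or chlorophyll-binding proteins, 3 of them with matches to algae. These summed to 41.2 to 52.5 FPKM in LP libraries and 0 to 0.27 FPKM in HP libraries, with 4 of 4 called higher and 2 of them at 0 in every HP library. The largest of the 4 was Cluster-8255.71546, a photosystem I subunit with a match in Medicago truncatula, at 38.2 ± 6.28 FPKM under LP (SD, n = 3) and 0 in every HP library. Both lists hold only unigenes that the study found to differ. All 4 photosynthetic unigenes came from the part read of the changed unigenes, and their lowest log2 fold change was 4.8. Photosynthetic unigenes with smaller or opposite changes may lie outside that part, so nothing is read from 4 of 4 being called higher. The part of such photosynthetic signal in the SPX values was not tested.

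The SPX partners and targets were drawn from the study's tables of changed genes, which were chosen on these same libraries, so their counts are no independent evidence of direction. The PHR1-like factors, the MYB regulators to which SPX proteins bind in Arabidopsis and rice, were lower under LP in 2 of 2. Cluster-8255.53008 had 3.37, 3.65 and 3.56 FPKM in LP roots, against 11.5, 13.8 and 13.8 FPKM in HP roots, and Cluster-8255.79060 had 9.11, 12.4 and 8.75 FPKM in LP roots, against 29.6, 29.2 and 32.4 FPKM in HP roots. The groups did not overlap in either, and the log2 fold changes were -1.87 (adjusted p = 0.000554, edgeR) and -1.58 (adjusted p = 0.00129, edgeR). Both were called lower under all 19 alternatives run.

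The kinases described as inositol hexakisphosphate and diphosphoinositol-pentakisphosphate kinases, which make the inositol pyrophosphates that SPX domains bind, were all under 2 FPKM. The study listed these unigenes among its phosphatases, and the level of inositol pyrophosphates was not measured in these libraries. Of 5 listed, 4 were tested, 3 were called lower, 0 higher and 1 was not called, with a median log2 fold change of -1.51. Cluster-8255.96616 had 0.35, 0.51 and 0.50 FPKM in LP roots, against 1.42, 1.49 and 1.56 FPKM in HP roots (log2 fold change -1.70, adjusted p = 0.00433, edgeR). Cluster-8255.87098 averaged 0.563 ± 0.156 FPKM under LP and 1.42 ± 0.242 FPKM under HP (SD, n = 3 each; log2 fold change -1.32, adjusted p = 0.0175, edgeR). Cluster-8255.18590 had 0 reads under LP and 59 under HP, so that its LP level was at least 24.8-fold lower (adjusted p = 0.0138, edgeR). Cluster-8255.19645 did not pass the filter, with 0 and 30 rounded reads under LP and HP, and Cluster-8255.103199 went the other way without passing the test (0.983 ± 0.0208 FPKM under LP and 0.263 ± 0.266 FPKM under HP, SD, n = 3 each; log2 fold change 1.90, adjusted p = 0.0951, edgeR). These calls depended on the processing. The number of kinases called lower was 0 with limma on log2(FPKM + 1) and 1 with the replicate number as a block, and DESeq2, the tool named by the study, called 1 kinase higher. The number called lower ran between 1 and 4 when each library was left out in turn, with 1 called without HP replicate 3, and without HP replicate 1 Cluster-8255.103199 was called higher.

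Among the targets of phosphate-starvation signalling, the Pi transporter section of the study's list was mixed and the purple acid phosphatases moved almost wholly one way. The pyrophosphatases moved wholly one way, as did the lipid genes in the part read of the study's table of changed unigenes. Of 18 listed in the transporter section, 17 were tested, 11 were called higher, 5 lower and 1 neither (median log2 fold change 2.01). Its most abundant unigene, Cluster-8255.64283, described as a glycerol-3-phosphate transporter, averaged 337 ± 39.7 FPKM under LP and 84.8 ± 2.32 FPKM under HP (SD, n = 3 each; log2 fold change 2.01, adjusted p = 0.000215, edgeR). Of 23 purple acid phosphatases and phytases, which release phosphate from organic compounds, 21 were tested, 20 were called higher and 1 lower (median 3.55). The one with the highest mean over all 6 libraries, Cluster-8255.83560, an acid phosphatase 8-like unigene, averaged 142 ± 5.96 FPKM under LP and 30.5 ± 2.89 FPKM under HP (SD, n = 3 each; log2 fold change 2.24, adjusted p = 0.000125, edgeR).

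Inorganic pyrophosphatases, which split pyrophosphate into phosphate, were called higher in 6 of 6 (median log2 fold change 4.68). Cluster-8255.105551 averaged 603 ± 82.1 FPKM under LP and 3.13 ± 1.13 FPKM under HP (SD, n = 3 each; log2 fold change 7.61, adjusted p = 9.63e-05, edgeR). Of 18 unigenes for replacing or breaking down membrane phospholipids (SQD2, monogalactosyldiacylglycerol synthase, phospholipase D and glycerophosphodiester phosphodiesterase), 17 were tested and 17 were called higher, with a median of 5.98, or 5.33 with the 6 that had no HP read set at their bounds. This list was sought only in the 1272 rows read of the study's table of changed unigenes, and its lowest value was 4.55. Its count and median therefore depend on which rows were read, and nothing is read from them. Cluster-8255.58978, a phosphodiesterase of this list, averaged 754 ± 59.8 FPKM under LP and 10.4 ± 2.21 FPKM under HP (SD, n = 3 each; log2 fold change 6.19, adjusted p = 5.09e-05, edgeR). The SPX median of 5.77 lies beside those of the pyrophosphatases and the lipid genes and above those of the transporters and acid phosphatases. No test was made of these differences. The SPX group holds only unigenes listed as higher under LP, whereas the transporter and acid phosphatase lists also hold lowered ones. The lipid list depends on the rows read. Because the lists were chosen in unlike ways, the order of these medians cannot rank the classes.

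**Figure D5:**
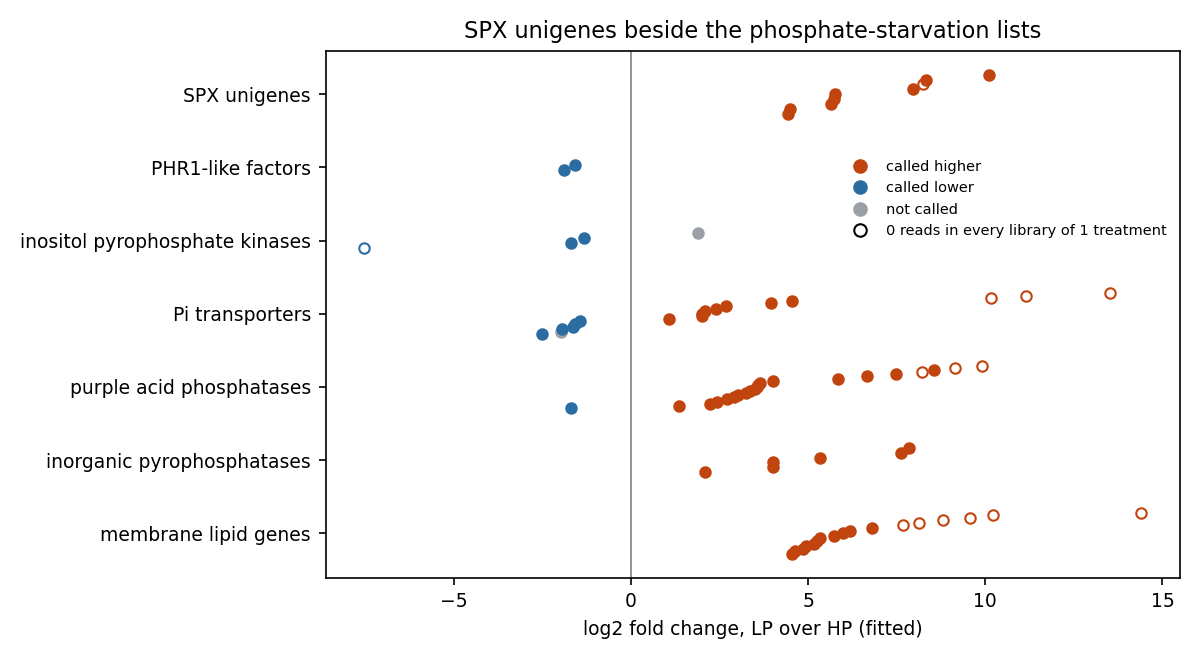
Fitted log2 fold change, LP over HP (x axis), of each tested unigene in the SPX group and in 6 lists of phosphate-starvation genes (rows), orange where called higher, blue where called lower, grey where not called, and open where every library of 1 treatment had 0 reads and the fitted value is no bound. The SPX unigenes lie between 4.44 and 10.11, and both PHR1-like factors lie below 0.

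The unigenes with the pattern most like the SPX group were sought among 1381 described unigenes tested. These came from the study's tables of changed genes, so the pool was itself chosen on the same comparison. Likeness was the Euclidean distance of the centred log2 CPM over the 6 libraries to the mean profile of the 9. That profile was 2.99, 2.94 and 3.33 in LP libraries, against -3.21, -2.51 and -3.54 in HP libraries (log2 units from its own mean), highest in LP replicate 3 and least low in HP replicate 2. The 9 themselves lay between 1.03 (Cluster-8255.18191) and 4.79 (Cluster-8255.114442) from it, farther than the 10 nearest other unigenes. Nearest were Cluster-8255.20685, described as ruBisCO-associated protein-like (distance 0.26), the phosphodiesterase Cluster-8255.58978 (0.405), Cluster-8255.15805, a glutathione peroxidase (0.532), and the purple acid phosphatase Cluster-8255.114464 (0.751). The other 6 lay at distances of 0.781 to 0.935. Of these, Cluster-8255.43319 was a hypothetical protein and Cluster-8255.17203 an uncharacterized protein by the first match given. The rest were Cluster-8255.16153 (an inactive protein kinase), Cluster-8255.16805 (citrate-binding protein-like), Cluster-8255.114334 (an alpha-glucosidase) and Cluster-8255.22458 (described as disease resistance protein RPP13). Cluster-8255.20685 averaged 35.1 FPKM under LP and 0.33 FPKM under HP, and Cluster-8255.15805 averaged 28.9 FPKM under LP and 0.0733 FPKM under HP. The set depends on the scale, since only 2 of the 10 were also among the nearest 10 by distance on log2(FPKM + 1), and 6 to 8 remained when 1 library was left out.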

How the data were processed

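RNA was sequenced from RY2 roots, with 3 LP and 3 HP libraries. According to the study's methods, the authors assembled the filtered reads with Trinity into unigenes without a genome and estimated expression with RSEM, and the submitters' processing notes also name Bowtie2 2.2.3. For each library the authors deposited estimated counts (expected counts from RSEM, not normalized, of which 34.0% to 36.4% were not whole) and FPKM values scaled for length and library size. RSEM's division of reads among similar unigenes makes the split between them uncertain.

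Estimated counts were rounded, filtered with filterByExpr (minimum count 10), scaled by TMM and compared between LP and HP in edgeR 4.0.16 (quasi-likelihood test, limma 3.58.1, R 4.3.3) with Benjamini-Hochberg adjustment over all 62040 tested. Calls required an adjusted p under 0.05 together with a log2 fold change of 1 or more in either direction. Log2 CPM used a prior count of 2. SE values come from the log2 CPM of 3 libraries per treatment. They describe the difference in mean log2 CPM and not the fitted log2 fold change printed beside them. A library with 0 rounded reads enters them at a floor set by the prior count. Where a treatment had 0 reads, the bound given is that against 3 reads in the whole group, and where it had 1 to 3 reads an exact 95% interval was given. Both cover counting error only. For 1 unigene, 3 against 3 libraries allow no exact permutation p below 0.1. No 2 libraries were alike within sampling noise (chi-square per degree of freedom 6.40 to 20.1). The steps were tested on simulated data.

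Alternatives were DESeq2 1.42.0 (named by the study), 3 other scalings, other filters and thresholds, limma on log2(FPKM + 1) and log2(FPKM + 0.1), thinning to equal depth, a replicate block, unrounded counts and each library left out. The text names the 9 members, other unigenes described as SPX domain-containing, the unigene of each list with the highest mean FPKM over all 6 libraries (all of a list of 5 or fewer) and the 10 described unigenes nearest in pattern. Members and lists were chosen with earlier results of these data known. Descriptions, lists and primers came from the supplementary tables, of which the table of changed unigenes was read in part (1272 rows); SPX unigenes listed as lower under LP are not analysed here.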

Additional observations from a re-analysis of the deposited data

How the results depend on the processing

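None of the results turned in direction under any alternative run. Over all unigenes, 3780 were called higher and 4403 lower; these counts were 2338 and 2829 with the replicate number as a block, 1332 and 1721 when tested against a 2-fold change, and 1910 and 2304 at an adjusted p of 0.01. With 1 library left out they ran between 2589 and 3332 (higher) and between 2668 and 4851 (lower). Of the 9 SPX unigenes, 7 to 9 were called over 19 alternatives, with 8 to 9 when 1 library was left out. The block lost Cluster-8255.114752 and Cluster-8255.45695 (7 called), and testing against a 2-fold change and the adjusted p of 0.01 each lost Cluster-8255.45695 (8 called). Same-numbered LP and HP libraries did not deviate together (correlations of deviations -0.0057, 0.0400 and 0.0487). These values cannot show whether the boxes were paired by design, which the sources used here do not give. The losses under the block are therefore left standing beside the fit reported. Of the list unigenes, 65 were called, and 49 to 67 over the alternatives. At an adjusted p of 0.01, 10 lipid genes were called higher and 1 kinase lower, and when tested against a 2-fold change 2 Pi transporters, 0 acid phosphatases and 1 kinase were called lower. The summed FPKM ratio of 119 was 76.5 on TMM-normalized counts, 202 without Cluster-8255.18191 and 108.5 to 146.1 with 1 library left out. Of the 10 nearest unigenes, 2 were shared on log2(FPKM + 1) and 6 to 8 with 1 library left out. On log2(FPKM + 1) the changes of low unigenes were understated, at 1.34 for Cluster-8255.45695 and 1.96 for Cluster-8255.114752. The causes of these shifts were not tested. Depth limits the HP values, since 7 of the 9 SPX unigenes held fewer than 25 estimated counts in every HP library.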
